A study of Mus musculus with 6 samples.

Results

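The core circadian clock of the mouse heart is described here through 10 genes of a bulk RNA-seq table: Arntl, Clock, Npas2, Per1, Per2, Per3, Cry1, Cry2, Nr1d1 and Dbp. They were taken by gene name from the 55359 genes listed, all 10 were among the 20489 genes with enough counts to test, and they were chosen by a rule that already used the low values of Arntl and Npas2 in the YTHDF2 shRNA group. Values of these genes between the groups are therefore a description without a test. The hearts came from C57BL/6 mice given AAV9, an adeno-associated virus that infects heart muscle, through the tail vein, carrying an shRNA against YTHDF2 (group shYthdf2, 3 libraries) or the control labelled NC (group shNC, 3 libraries). A construct with the cardiomyocyte promoter cTNT joined to GFP is described for the virus. All 6 libraries came from hearts with cardiac I/R, that is 45 min of ischemia followed by 24 h of reperfusion. The I/R was begun 4 weeks after the injection, and no uninjured heart is included. The age and sex of the mice, the hour of day at which hearts were taken and whether each library is 1 animal are not stated in the sources used here.

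The mammalian clock is a transcriptional feedback loop. ARNTL (BMAL1) pairs with CLOCK or its paralog NPAS2 and activates genes through E-boxes, among them the Period and Cryptochrome genes, whose proteins then repress that pair. In an interlocked loop, NR1D1 (REV-ERB alpha) represses Arntl and Npas2 through the elements that ROR factors use to activate them, while DBP activates genes through D-boxes. In the heart the clock times genes of metabolism and electrical activity, and in a healthy mouse Arntl and Npas2 peak at about the opposite time of day to Nr1d1 and Dbp.

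Promoter sequences are shown for the activators with low values, Arntl and Npas2, and for Per1 and Per3, which carry different sets of motifs. All but Per2, or 9 of the 10 genes, matched the RefSeq promoter table of build GRCm38.p6, with 13 promoters. The 250 bases before the start site are printed 5′ to 3′ on the gene's strand, and capitals mark any match, on either strand, to the E-box CACGTG, the D-box TTATGNAA, the ROR and REV-ERB element TNGGTCA, the cAMP element TGACGTCA or the glucocorticoid receptor motif TGTTCT.
Arntl, chr7:113207215-113207464, plus strand: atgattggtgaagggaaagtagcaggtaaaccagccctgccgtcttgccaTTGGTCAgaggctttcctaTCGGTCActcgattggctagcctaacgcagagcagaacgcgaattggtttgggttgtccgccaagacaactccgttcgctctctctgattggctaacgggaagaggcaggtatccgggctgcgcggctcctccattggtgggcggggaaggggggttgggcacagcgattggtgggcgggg
Npas2, chr1:39194022-39194271, plus strand: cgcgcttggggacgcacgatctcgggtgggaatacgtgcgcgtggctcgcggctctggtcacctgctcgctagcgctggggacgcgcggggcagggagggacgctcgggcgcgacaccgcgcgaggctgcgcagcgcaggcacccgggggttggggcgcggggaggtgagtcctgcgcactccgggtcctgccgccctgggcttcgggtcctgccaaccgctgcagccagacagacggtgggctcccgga
Per1, chr11:69098699-69098948, plus strand: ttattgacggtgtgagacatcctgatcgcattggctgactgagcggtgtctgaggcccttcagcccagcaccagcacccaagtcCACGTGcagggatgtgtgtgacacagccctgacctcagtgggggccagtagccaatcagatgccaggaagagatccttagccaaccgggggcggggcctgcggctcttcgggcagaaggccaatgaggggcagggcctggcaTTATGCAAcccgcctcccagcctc
Per3, chr4:151044666-151044915, minus strand: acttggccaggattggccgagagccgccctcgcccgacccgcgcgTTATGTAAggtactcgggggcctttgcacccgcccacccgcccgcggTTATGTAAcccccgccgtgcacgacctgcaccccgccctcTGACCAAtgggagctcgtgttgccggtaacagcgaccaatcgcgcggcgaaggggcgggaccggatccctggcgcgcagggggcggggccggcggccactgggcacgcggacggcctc

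The Arntl promoter held TNGGTCA at positions -200 to -194 and again at -181 to -175, counted from the start site. A further match lay at 31 to 37 after the start of the other Arntl promoter in the table. In the first of its 2 promoters, Per1 held an E-box at -166 to -161 and a D-box at -24 to -17. Per3 held D-boxes at -205 to -198 and at -158 to -151, and TNGGTCA on the opposite strand at -118 to -112. Of those not printed, Cry1 held an E-box at -60 to -55 and Cry2 held TNGGTCA on the opposite strand at -133 to -127. No match overlapped another. None of the 5 motifs was found in the windows of Clock, Npas2, Nr1d1 or Dbp, each of which covers 250 bases before and 50 bases after a start. The E-box was thus in 2 of the 9 genes, against 8.09% of the 27025 genes and 7.15% of the 32851 promoters of the table. The D-box was in 2 of 9, against 3.99% of genes and 3.38% of promoters, and TNGGTCA in 3 of 9, against 12.4% of genes and 11% of promoters. The cAMP element and the glucocorticoid receptor motif were in 0 of 9, against 2.03% and 21.3% of genes and 1.79% and 19% of promoters. These matches are letters in a window, not measured binding. For the other Arntl promoter, Cry2, Nr1d1 and Dbp, the bases just after the start were not found in a GENCODE (annotated) transcript of the gene.

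The libraries held 67023813 to 77561552 counts, of which 20.5% to 27.3% came from mitochondrial chromosome genes. At this depth the floor of 3 counts lay at 0.0388 to 0.0443 CPM (counts scaled to library size), well under the 94 to 355 counts of Npas2, the clock gene with the fewest. The targeted gene, Ythdf2, did not have a lower level in shYthdf2, with 27.8 ± 4.28 CPM against 24.0 ± 3.16 in shNC (SD, n = 3 each) and a log2 fold change of 0.21 (SE 0.20), so the groups are named by their labels only. All 8 ventricular cardiomyocyte markers were detected in all 6 libraries. shNC 3 stood apart from the other shNC libraries: its summed ventricular markers were 20210 CPM against 36570 and 51370, its summed atrial markers 3816 CPM against 291 and 612 (Sln was at 0 in all libraries), and its macrophage markers 935 CPM against 301 and 284. The spread between libraries of a group was wide, with a common biological coefficient of variation of 48.2%.

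Among the activators, Arntl and Npas2 had lower values in all 3 shYthdf2 libraries than in any shNC library. Clock showed the same order on CPM by a narrow margin, with most of its difference in 1 library. Over all genes tested, 4.55% had all shYthdf2 libraries below all shNC libraries on CPM, and 4.95% had them above. Arntl and Npas2 were chosen with their low values in view. The 7 genes of the repressor and output limb overlapped between the groups on CPM and had a median log2 fold change of 0.01, against -0.01 over all genes tested.

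Arntl (ENSMUSG00000055116), which encodes the partner shared by CLOCK and NPAS2, lies on chromosome 7 at 112806672 to 112913333 (plus strand); these positions are those of the authors' table, which names no build. Its level was 11.1, 8.50 and 9.5 CPM in shNC 1 to 3 in that order, against 4.79, 3.98 and 3.89 CPM in shYthdf2 1 to 3. The groups were well apart, and the libraries of each group lay close together. Group means were 9.69 ± 1.30 CPM for shNC against 4.22 ± 0.50 CPM for shYthdf2 (SD, n = 3 each). In the fit to all genes this was a log2 fold change of -1.20 (SE 0.24, 95% interval -1.75 to -0.64), or a 2.30-fold lower level, and leaving out each library in turn gave -1.30 to -1.09. In these bulk samples, fewer cells that express a gene and less of its RNA per cell cannot be told apart.

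Npas2 (ENSMUSG00000026077), the CLOCK paralog, lies on chromosome 1 at 39232812 to 39402317 on the plus strand. It was at 3.62, 5.24 and 2.02 CPM in shNC 1 to 3, and at 1.30, 1.62 and 1.66 CPM in shYthdf2 1 to 3. The groups did not overlap, but shNC 3 came close to the shYthdf2 libraries, and the shNC values were much more spread than the shYthdf2 values. The log2 fold change was -1.25 (SE 0.41, 95% interval -2.20 to -0.29), a 2.38-fold lower level. It ran from -1.53 without shNC 3 to -0.88 without shNC 2. Of the marker lists, erythroid markers were lower in shYthdf2 than in most of shNC, with a sum of 613 to 642 CPM against 2097, 3694 and 479 in shNC 1 to 3, and platelet markers were higher in shYthdf2 1 and 2, with 209 and 217 CPM against 45.7 to 66.9 in shNC. Of the 7 erythroid markers, 6 had an unadjusted edgeR p under 0.05 and were lower, 1 passed with DESeq2, and the median log2 fold change was -1.79. Of the 8 platelet markers, 6 had such a p and were higher, 2 passed with DESeq2, and the median was 2.28. Of the 8 smooth muscle and pericyte markers, 4 had such a p and were higher, 1 passed with DESeq2, and the median was 0.81. Over all genes tested, 3.65% had such a p and 0.264% passed with DESeq2. All shYthdf2 libraries lay above shNC for 3 smooth muscle and 2 platelet markers, against 4.95% of genes. They lay below for 1 erythroid marker, against 4.55%. The summed smooth muscle and pericyte level overlapped, at 861 to 1110 CPM in shYthdf2 and 529 to 987 CPM in shNC. Summed ventricular cardiomyocyte markers overlapped, at 22400 to 28640 CPM in shYthdf2 and 20210 to 51370 CPM in shNC. Of these 8 markers, 7 had lower values in shYthdf2 and 1 higher, with a median log2 fold change of -0.58. Of the 8 neutrophil markers, 7 had higher values and 1 lower, with a median of 0.59. The 8 macrophage markers also had 7 higher and 1 lower, with a median of 0.30. In these 3 lists, 0 markers had an unadjusted edgeR p under 0.05. The part of cell makeup in the Arntl and Npas2 values was not tested.

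Clock (ENSMUSG00000029238), whose protein is the usual partner of ARNTL, gave 35.8, 32.1 and 38.0 CPM in shNC 1 to 3, and 31.0, 31.2 and 8.0 CPM in shYthdf2 1 to 3. Both shYthdf2 1 and shYthdf2 2 lay just under the lowest shNC library, and shYthdf2 3 was 3.89-fold under the mean of those 2. The log2 fold change of -0.59 (SE 0.47, 95% interval -1.69 to 0.50) became -0.18 without shYthdf2 3. On FPKM, the authors' values per length and depth, the groups overlapped for Clock and remained apart for Arntl and Npas2. In shYthdf2 3, the low library of Clock, Arntl and Npas2 lay near the other shYthdf2 libraries.

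**Figure D1:**
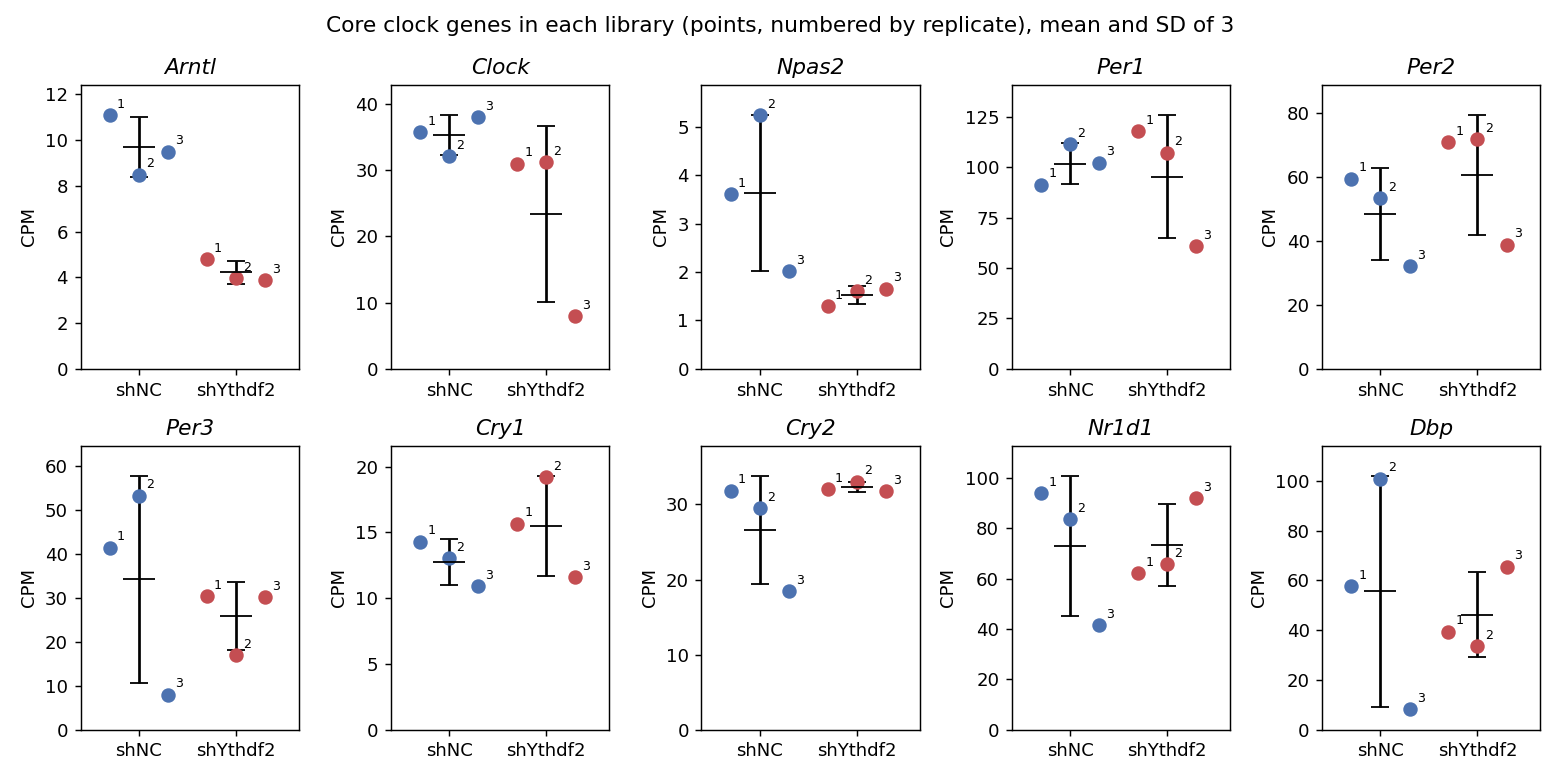
Level of each of the 10 clock genes in CPM (vertical axes, each from 0), with 1 numbered point per library and bars for the mean and SD of 3 libraries. Arntl and Npas2 separate the groups, Dbp and Per3 are low in shNC 3 (8.31 and 7.97 CPM), and Clock is low in shYthdf2 3 (8.0 CPM).

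The Period genes encode repressors that enter the nucleus with cryptochromes. Per1 (ENSMUSG00000020893), which light, stress hormones and cAMP also induce, was at 91.4, 112 and 102 CPM in shNC 1 to 3 and at 118, 107 and 60.9 CPM in shYthdf2 1 to 3. The groups overlapped, and shYthdf2 3 was the low library, as it was for Clock. Between the groups the log2 fold change was -0.09 (SE 0.27) and ran from -0.27 to 0.15 with 1 library left out.

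Per2 (ENSMUSG00000055866) was measured at 59.6, 53.5 and 32.2 CPM in shNC 1 to 3 and 71.0, 71.9 and 38.9 CPM in shYthdf2 1 to 3. The library numbered 3 was the low one in both groups, and its log2 fold change of 0.32 (SE 0.32) was 0.10 without shNC 3 and 0.56 without shYthdf2 3. Per3 (ENSMUSG00000028957), the Period paralog that is not needed for rhythmicity in mice, was at 41.5, 53.3 and 7.97 CPM in shNC 1 to 3 and at 30.4, 17.0 and 30.2 CPM in shYthdf2 1 to 3. The shNC group thus held both the highest and the lowest Per3 value of the study, and shNC 3 was 5.95-fold under the mean of the other shNC libraries. The log2 fold change of -0.40 (SE 0.61) ran from -0.87 without shNC 3 to 0.07 without shNC 2. The Per3 gene lies wholly inside the listed span of Camta1 on the same strand. Camta1 was at 70.2, 94.4 and 57.4 CPM in shNC 1 to 3 and at 56.9, 61.1 and 81.2 CPM in shYthdf2 1 to 3, so it too was lowest of shNC in shNC 3, and reads of the overlap cannot be assigned from the table.

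The cryptochromes, the main repressors of the ARNTL pair, varied least of the 10 genes by the ratio of the highest to the lowest FPKM, 1.69 for Cry1 and 1.62 for Cry2. Cry1 (ENSMUSG00000020038) was at 14.3, 13.0 and 10.9 CPM in shNC 1 to 3 and at 15.7, 19.2 and 11.6 CPM in shYthdf2 1 to 3, with a log2 fold change of 0.28 (SE 0.25) that was 0.10 without shYthdf2 2 and 0.45 without shYthdf2 3. Cry2 (ENSMUSG00000068742) was at 31.8, 29.6 and 18.4 CPM in shNC 1 to 3 and at 32.1, 33.05 and 31.7 CPM in shYthdf2 1 to 3. The 3 shYthdf2 values of Cry2 were nearly equal and matched shNC 1, while shNC 3 was low. Its log2 fold change was 0.28 (SE 0.24), with 0.076 without shNC 3 and 0.43 without shNC 1. On FPKM the Cry2 values of shYthdf2, 4.48 to 4.76, lay just above those of shNC, 2.95 to 4.39, whereas on CPM they overlapped.

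Nr1d1 (ENSMUSG00000020889), a heme-binding repressor of Arntl, was at 94.0, 83.6 and 41.6 CPM in shNC 1 to 3 and at 62.1, 65.7 and 92.2 CPM in shYthdf2 1 to 3. The shNC group held both the highest and the lowest library, and the log2 fold change was 0.01 (SE 0.33, 95% interval -0.77 to 0.78). Its sign depended on the scaling, as it was -0.03 under upper quartile scaling. Dbp (ENSMUSG00000059824), a PAR bZIP activator and a direct target of the ARNTL pair, was at 57.7, 100.9 and 8.31 CPM in shNC 1 to 3 and at 39.4, 33.7 and 65.6 CPM in shYthdf2 1 to 3. All 3 shYthdf2 values fell between the extremes of shNC, and shNC 3 was 9.54-fold under the mean of the other shNC libraries. The log2 fold change of -0.27 (SE 0.74) ran from -0.77 without shNC 3 to 0.49 without shNC 2, and on log2(FPKM + 0.5) it was 0.26. Dbp overlaps Sphk2 on the opposite strand by 737 bases, and whether counting used strand is not stated.

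Counts of the 10 genes past a threshold are given beside the whole table and nothing is read from them, as the same contrast chose the genes. With edgeR's quasi-likelihood test and Benjamini-Hochberg adjustment, 0 of 10 passed an adjusted p of 0.05, against 2 of 20489 genes or 0.00976%. At an unadjusted p under 0.05 there were 2, Arntl and Npas2, against 3.65% of genes. With DESeq2 there was 1, Arntl, against 0.264%. On CPM, 3 of 10 had all shYthdf2 libraries under all shNC libraries, against 4.55% of genes, and 0 of 10 had them all above, against 4.95%.

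**Figure D2:**
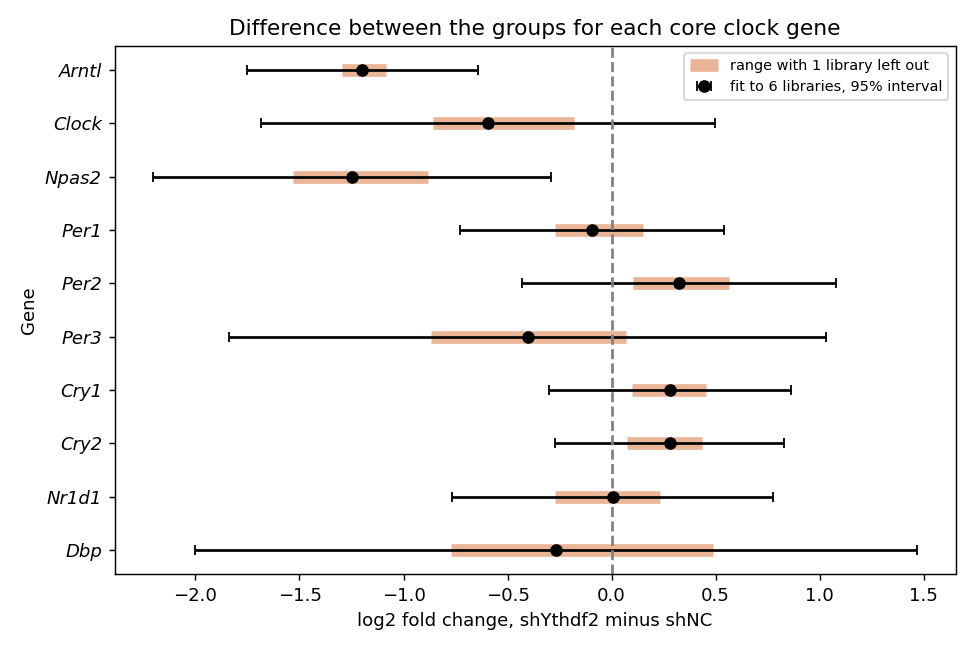
log2 fold change, shYthdf2 minus shNC, of each clock gene (point) with its 95% interval (line) and the range of values with 1 library left out (shaded bar). Arntl, at -1.20, has a narrow shaded range, whereas that of Dbp runs from -0.77 to 0.49.

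Levels between genes were compared per length, on FPKM. In shNC the order of mean FPKM was Nr1d1 at 20.7, Per1 at 16.1, Dbp at 15.5, Per2 at 7.25, Cry2 at 3.69, Cry1 at 3.38, Per3 at 3.01, Clock at 2.32, Arntl at 1.15 and Npas2 at 0.65. By group mean FPKM the repressors and outputs therefore stood above the activators, and the order of group means in shYthdf2 was the same. Most neighbours in this order overlapped in their shNC libraries. The exceptions were Per2 above Cry2, Clock above Arntl and Arntl above Npas2. Single libraries departed from it: Per3 was at 0.84 in shNC 3, below Clock at 2.80 and Arntl at 1.28. In shYthdf2 2, Per3 at 1.61 was below Clock at 2.07. The order also rests on the lengths behind FPKM. On CPM, the shNC mean of Clock, 35.3, lay above Per3 at 34.3, Cry2 at 26.6 and Cry1 at 12.8. Over the 6 libraries the ratio of the highest to the lowest FPKM was 9.63 for Dbp, 5.42 for Clock, 5.30 for Per3, 3.52 for Npas2, 2.79 for Arntl and 1.62 for Cry2.

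Ratios between members within a library, on FPKM, show both limbs at once. Dbp over Arntl was 13.1, 29.9 and 2.20 in shNC 1 to 3 and 20.8, 21.3 and 42.5 in shYthdf2 1 to 3. Nr1d1 over Arntl was 20.8, 24.1 and 10.7 in shNC and 31.9, 40.5 and 58.1 in shYthdf2. The Nr1d1 ratio had all shYthdf2 libraries above all shNC libraries, while the Dbp ratio overlapped. shNC 3 had the lowest and shYthdf2 3 the highest value of both ratios. Clock over Npas2, the ratio of the alternative partners, was 3.47, 2.14 and 6.64 in shNC and 8.31, 6.78 and 1.68 in shYthdf2, and overlapped. These ratios contain Arntl or Npas2, so they carry the values by which the genes were chosen.

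**Figure D3:**
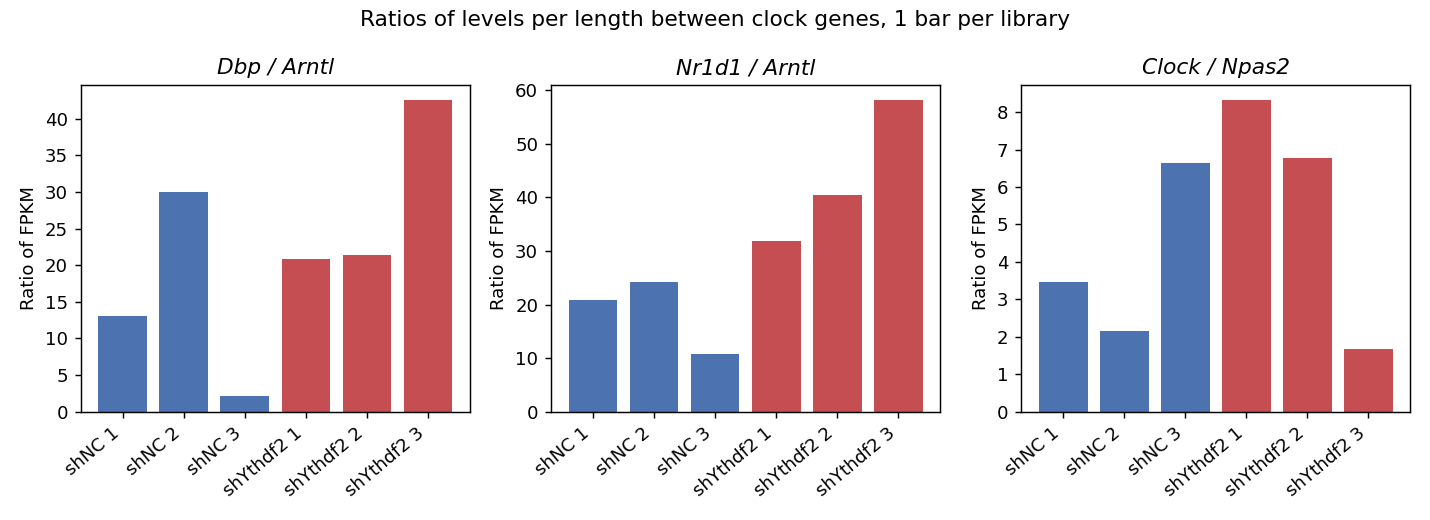
Ratio of FPKM between clock genes in each library (1 bar per library, axes from 0). Nr1d1 over Arntl is higher in all shYthdf2 libraries (31.9 to 58.1) than in all shNC libraries (10.7 to 24.1), and both ratios over Arntl are lowest in shNC 3.

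The difference between groups aside, the clock genes varied within groups in 2 patterns, each resting on 1 library and with some genes in common. Dbp, Per3, Nr1d1, Cry2, Per2 and Cry1, 6 of the 7 repressors and outputs, had their lowest CPM of the 6 libraries in shNC 3, against 23.3% of all genes tested. Compared with the mean of the other shNC libraries, shNC 3 was 2.14-fold lower for Nr1d1, 1.75-fold for Per2, 1.67-fold for Cry2 and 1.25-fold for Cry1. Npas2 was 2.20-fold lower there, whereas Arntl (1.03-fold) and Per1 (0.992-fold) were almost level. The standard deviation of log2 CPM within shNC was 1.89 for Dbp, larger than in 98.0% of the 14486 genes with at least 1 CPM, and 1.49 for Per3, larger than in 95.8%. It was 0.12 for Clock and 0.14 for Per1, among the smaller values.

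The low genes of shYthdf2 3 were in part those of shNC 3, namely Per2 and Cry1, and in part others, Clock and Per1. Against the mean of shYthdf2 1 and 2, Clock was 3.89-fold, Per1 1.85-fold, Per2 1.84-fold and Cry1 1.5-fold lower in shYthdf2 3. Dbp and Nr1d1 were higher there, with 65.6 and 92.2 CPM against 33.7 to 39.4 and 62.1 to 65.7. The standard deviation of log2 CPM within shYthdf2 was 1.13 for Clock, larger than in 97.0% of genes, and 0.03 for Cry2, larger than in 2.46%. With group means removed, Pearson's r over the 6 libraries was 0.97 for Dbp and Per3, 0.94 for Dbp and Npas2, 0.92 for Dbp and Nr1d1, 0.93 for Clock and Per1 and 0.91 for Per2 and Cry1. For Arntl with the other 9 it ran from -0.39 to 0.42, but this depended on the scaling. Arntl with Npas2 was -0.39 here, -0.82 on log2(FPKM + 0.5) and -0.80 with the library size only, and Arntl with Dbp was -0.15, -0.63 and -0.60 in that order. These r describe 6 libraries that share their scaling.

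Low values in shNC 3 were also seen in other genes of the interlocked loop, named here after their values were seen. Of the 7 ROR, REV-ERB and PAR bZIP genes outside the 10, 5 had their lowest CPM in shNC 3, against 23.3% of all genes tested. Over all 53 clock-associated genes listed by function, 18 were lowest there. Tef, a PAR bZIP paralog of Dbp, was at 156.8, 45.4 and 6.90 CPM in shNC 1 to 3 and at 44.5, 46.0 and 88.2 CPM in shYthdf2 1 to 3. In shNC 3 it was 14.7-fold under the mean of the other shNC libraries. The same fold was 8.71 for Rora, an activator of Arntl, 3.27 for the PAR bZIP gene Hlf, 3.39 for the repressor Ciart and 2.96 for Nr1d2, the paralog of Nr1d1. Nfil3, which represses at D-boxes, was the other way, with 25.1 CPM in shNC 3 against 13.3 and 15.4. Rorb was also higher there, with a fold of 0.659. Of the other repressors and paralogs, so were Bhlhe40 (0.641), Bhlhe41 (0.627), Tipin (0.683) and Noct (0.792). Arntl2 and Timeless were at 1.15 and 1.41. Of the 15 clock-output genes, 7 had their lowest CPM in shNC 3, against the same 23.3% of all genes tested. The most extreme were Ucp3, a mitochondrial carrier, and Kcnip2, a potassium channel subunit, 18.9-fold and 13.3-fold under the mean of the other shNC libraries. Others were not low there: the same ratio was 0.637 for Wee1, 0.677 for Tspan4 and 0.855 for Por, and 0.932 to 1.03 for Coq10b, Dtx4 and Cys1. The marker sums of shNC 3 given above moved with these values, as did lower endothelial markers (992 CPM against 1388 and 1895) and smooth muscle markers (529 CPM against 947 and 987), higher fibroblast markers (1389 CPM against 760 and 913), higher neutrophil markers (405 CPM against 137 and 202) and the lower erythroid sum given above. In shYthdf2 3, neutrophil markers were at 128 CPM against 520 and 524, platelet markers at 60.8 CPM against 209 and 217, fibroblast markers at 1576 CPM against 820 and 838, and atrial markers at 2867 CPM against 1470 and 1448. The part of cell makeup in either pattern was not tested.

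**Figure D4:**
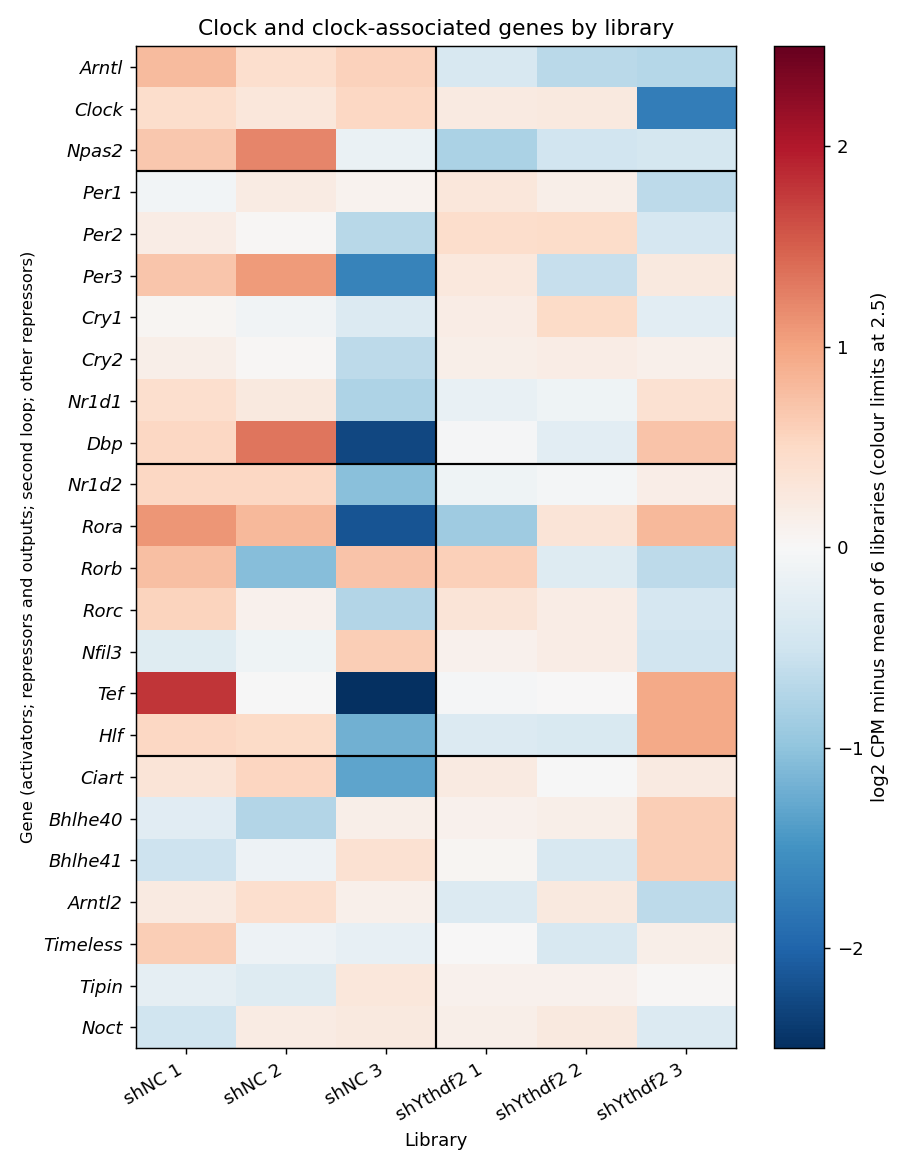
Each gene's log2 CPM minus its mean over the 6 libraries (colour, red higher and blue lower), with genes as lines grouped into activators, repressors and outputs, the interlocked loop and other repressors, and libraries as columns. Dbp, Per3, Rora, Tef and Hlf are lowest in shNC 3, whereas Arntl is high in all shNC libraries and low in all shYthdf2 libraries.

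The wider pathway was read from 53 clock-associated genes listed by function, all of them tested. None passed edgeR's adjusted threshold, none passed with DESeq2, and 0 had an unadjusted edgeR p under 0.05. Over all genes tested these shares were 0.00976%, 0.264% and 3.65%. DESeq2 gave no adjusted p for Gsk3b. Values were higher in shYthdf2 for 23 and lower for 30, with a median log2 fold change of -0.06 beside -0.01 for all genes. On CPM, 1 had all shYthdf2 libraries above shNC (Coq10b), against 4.95% of all genes. Another 2 had them all below (Dtx4 and Cys1), against 4.55%. None of the 3 separated the groups on FPKM.

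By role, the 7 genes of the interlocked loop had a median log2 fold change of -0.16. Those with the smallest p were Rorb at -0.37 (SE 0.63), Nfil3 at -0.16 (SE 0.31), Nr1d2 at -0.16 (SE 0.39) and Rora at -0.22 (SE 0.76). The 7 other repressors and paralogs had a median of 0.10. Bhlhe40, an E-box repressor, was at 46.7, 34.3 and 63.2 CPM in shNC 1 to 3 and at 61.4, 63.5 and 87.0 CPM in shYthdf2 1 to 3, a log2 fold change of 0.55 (SE 0.27) with overlapping groups. Arntl2, the paralog of Arntl, was at 6.31, 7.23 and 5.90 CPM in shNC 1 to 3 and at 4.25, 6.40 and 3.45 CPM in shYthdf2 1 to 3, a log2 fold change of -0.46 (SE 0.30), also with overlap. Timeless was at -0.20 (SE 0.28) and its partner Tipin at 0.14 (SE 0.23).

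The 12 kinases and ubiquitin ligases that act on clock proteins had a median of 0.07. Gsk3b, a kinase of PER, CRY and REV-ERB proteins, was at 5.47, 3.94 and 37.6 CPM in shNC 1 to 3 and at 35.4, 32.6 and 43.7 CPM in shYthdf2 1 to 3. Its low values were shNC 1 and shNC 2, and shNC 3 lay among the shYthdf2 libraries. The log2 fold change was 1.25 (SE 0.80), and without shNC 3 it was 2.99 with an edgeR adjusted p of 0.0191 (0.0191 to 0.9999 over the alternatives). Fbxw11 and Ddb1, parts of ubiquitin ligases, were at 0.41 (SE 0.29) and 0.29 (SE 0.22), and Fbxl21, a cryptochrome ligase gene, at -0.63 (SE 0.63). The 12 chromatin factors and coregulators had a median of -0.03, with Kmt2a at -0.27 (SE 0.23), Sirt6 at 0.21 (SE 0.20), Wdr5 at 0.21 (SE 0.24) and Nono at 0.18 (SE 0.22).

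The 15 output genes had a median of -0.26. Klf15, a clock-driven factor of heart metabolism and repolarization, was at 36.5, 49.8 and 7.49 CPM in shNC 1 to 3 and at 17.7, 16.6 and 19.2 CPM in shYthdf2 1 to 3. As for Dbp, its highest and lowest values were both in shNC, and the log2 fold change of -0.81 (SE 0.58) became -1.27 without shNC 3, with an edgeR adjusted p of 0.0460 (0.0460 to 0.9999 over the alternatives). Slc41a3, a magnesium transporter gene, was at -1.12 (SE 0.49), Tspan4 at 0.60 (SE 0.26) and Por, the reductase that serves cytochrome P450 enzymes, at 0.41 (SE 0.19).

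Since Per1 also answers to glucocorticoids, 12 glucocorticoid-induced genes were read beside it. None passed with edgeR or DESeq2 and 0 had an unadjusted edgeR p under 0.05, against 0.00976%, 0.264% and 3.65% of all genes tested. Of the 12, 6 had higher and 6 lower values, with a median log2 fold change of -0.05. Named by their p, Klf9 was at -0.28 (SE 0.34), the phosphatase gene Dusp1 at 0.21 (SE 0.30), Cebpd at -0.18 (SE 0.26) and the cell cycle inhibitor Cdkn1a at -0.18 (SE 0.27). Of the 12, 9 had their lowest CPM in shYthdf2 3, the low library of Per1, against 17.2% of all genes tested. The part of glucocorticoids or of cell makeup in these low values was not tested.

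The genes whose log2 CPM tracked Arntl most closely across the 6 libraries, among 10636 genes with a mean of at least 5 CPM, were Smdt1 (Pearson's r = 0.98), Mbd6 (0.96), Hps5 (0.96), Rabggta (0.95) and Dcbld1 (0.95). Their differences were smaller than that of Arntl; Smdt1, which encodes a regulator of the mitochondrial calcium uniporter, ran from 107 to 121 CPM over shNC and from 74.2 to 85.5 CPM over shYthdf2. The closest mirror images were Pphln1 (-0.99), Tlnrd1 (-0.98), Ift57 (-0.98), Eif4e (-0.98) and Tmcc3 (-0.98). Eif4e, the cap-binding translation factor, ran from 12.3 to 15.6 CPM over shNC and from 71.9 to 79.1 CPM in shYthdf2. Group differences enter these r, and 5 genes exceeded 0.95 with Arntl.

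Dbp was tracked by Rhbdl3 (Pearson's r = 1.00), Fam174b, Ppm1a, Dazap2 and Rab12 (0.99 each), and 166 genes exceeded 0.95. Rhbdl3 was at 7.51, 9.47 and 3.06 CPM in shNC 1 to 3 and at 5.98, 5.54 and 7.79 CPM in shYthdf2 1 to 3. Its order of libraries was that of Dbp, with shNC 2 highest and shNC 3 lowest. Tmem208, Fgd2, Klhdc4, Fbxw17 and Medag were the closest mirror images (-0.99 each), and were highest in shNC 3. Both lists describe 6 libraries and were picked from the 10636 genes.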

How the data were processed

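Total RNA of the hearts was taken up in Trizol and made into TruSeq libraries, per the labels. Per the file headers, the authors deposited raw, unscaled counts for each gene. FPKM values of the authors stand beside them, per the file headers, with 0.0001 where a gene had no count. The submitters' processing notes name Bowtie 0.12.2 and mm8 without a role. Not given in the sources used here are the counting tool, its use of strand, the annotation and the build of the coordinates.

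Counts were tested in edgeR 4.0.16 (R 4.3.3) by quasi-likelihood, two-sided, after filterByExpr and TMM scaling, adjusted by Benjamini-Hochberg over 20489 genes. DESeq2 1.42.0, limma 3.58.1 on log2(FPKM + 0.5), other scalings and filters, a replicate block and leaving out each library were alternatives. CPM use the TMM-scaled library size, within-group deviations use log2 CPM with a prior count of 2, and log2 fold changes are shYthdf2 minus shNC with a standard error from the F statistic. The script was tested on simulated data. As no label says that libraries are separate animals, p-values reflect only the spread among these samples, which may be technical. Floors cover counting error only. shYthdf2 1 and 2 were the most alike pair, with a root mean square log2 difference of 0.573 against 0.760 to 1.16 for the other pairs. They differed beyond sampling noise, which cannot show that they are separate animals. Each was counted as 1 library.

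The members and lists were chosen with earlier results of these data known. The 10 members and Ythdf2 were always named, then from each list up to 4 genes with the smallest p, and for Arntl and Dbp the 5 highest and 5 lowest r, predicted gene names left out. Motifs were searched in Python 3.11.15.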

Additional observations from a re-analysis of the deposited data

How the results depend on the processing

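Arntl and Npas2 kept their direction in all settings run, and so did Clock, Per2, Cry1 and Cry2. The size for Arntl and Npas2 was lower on FPKM with an added pseudocount, which shrinks log2 fold changes of low genes. Npas2 was at -0.91, -0.53 and -0.35 with pseudocounts of 0.1, 0.5 and 1. As Arntl and Npas2 were chosen with their low values in shYthdf2 in view, their kept direction is no support. Genes past the threshold numbered 2 in the reported fit, 1 with the library size only, 54 with DESeq2 and 1 with limma at each of the pseudocounts 0.5, 0.1 and 1. Leaving out each library gave 0 to 211. Clock members past the threshold numbered 0, and 1 with DESeq2. The clock-associated count was 0 to 2 with a library left out, and 2 only without shNC 3.

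Same-numbered libraries did not deviate together over the genes compared (r of 0.033, -0.0015 and 0.014 for numbers 1, 2 and 3). Such r cannot show whether libraries of the same number shared a batch. With the replicate block 0 genes passed, Dbp was at 0.12 and Rora at 0.010 (log2 fold change).

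A pair of alternatives was chosen after seeing the data. With shYthdf2 1 and 2 summed into 1 library, 0 genes passed. Without both libraries numbered 3, 550 genes passed, 5 of them clock-associated (Gsk3b, Kcnip2, Tspan4, Klf15 and Slc41a3) and 1 glucocorticoid-induced (Errfi1). Arntl was then at -1.15 and Npas2 at -1.59, while signs turned for Per1 (0.16), Nr1d1 (-0.47), Rorb (0.10), Nfil3 (0.35) and Cdkn1a (0.19).

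Other turns of sign, all in genes whose 95% interval spans 0, were Nr1d1 at -0.013 with the stricter filter, -0.00011 with RLE scaling, -0.027 with upper quartile scaling and -0.00011 with DESeq2; Dbp at 0.26, 0.30 and 0.22, and Nr1d2 at 0.020, 0.024 and 0.014, with limma at pseudocounts 0.5, 0.1 and 1; and Rora at 0.081 with limma at 0.1. With 1 library left out, log2 fold changes ran from -0.27 to 0.15 for Per1, -0.87 to 0.068 for Per3, -0.27 to 0.23 for Nr1d1, -0.77 to 0.49 for Dbp, -0.33 to 0.17 for Nfil3, -0.51 to 0.070 for Nr1d2, -0.72 to 0.26 for Rora, -0.35 to 0.11 for Timeless, -0.33 to 0.048 for Cebpd and -0.35 to 0.0069 for Cdkn1a. The cause was not tested. Intervals of the members are wide, with 3 libraries a group. The fewest counts among the members were the 94 to 355 of Npas2, above the floor of 3 counts. The part of counting noise in these intervals was not tested.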
